A study of Homo sapiens with 3 samples.

Results

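Metal ions are handled in the intestinal epithelium by carriers, channels, a reductase and a receptor. The DNA around 8 genes for such proteins was examined here for binding of the transcription factor FOXA2. The genes are SLC40A1, CYBRD1, SLC11A2 and TFRC for iron, SLC39A4 for zinc, SLC30A10 for manganese, TRPV6 for calcium and TRPM6 for magnesium. Each gene was taken with 50 kb on each side, on hg19, and a peak belonged to a window when its midpoint lay inside. The rule uses gene and position, and the genes were chosen with earlier results of these data known. The 8 windows cover 1403 kb and hold 51 of the 63949 peaks of replicate 1 and 28 of the 26907 peaks of replicate 2. Of the 24345 sites found in both replicates, 26 lie in them.

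The cells were Caco2, an established line from a human colorectal adenocarcinoma that is used as a model of the absorptive epithelium, grown in low-glucose medium with serum. FOXA2 was immunoprecipitated with 1 antibody in 2 replicate libraries, replicate 1 with 26183147 tags and replicate 2 with 15756702 (a tag is an aligned read end). A further library, input chromatin without antibody, entered only through the authors' peak calls. There is 1 cell line and 1 condition, nothing in the labels says that the replicates were separate cultures, and the lists hold no measure of expression of these genes, so every value below is a description of binding and none is a test of a condition. A peak's value is the authors' score, read as tags in the peak scaled to 10000000 per library. Each unit of score is thus worth 2.62 tags of the first library and 1.58 of the second. Sites are called shared where the peaks of both replicates have at least 1 bp in common, and carry their replicate 1 coordinates.

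As background, iron in the gut lumen is reduced by CYBRD1 (duodenal cytochrome b), carried into the enterocyte by SLC11A2 (also called DMT1) and released to the blood by SLC40A1 (ferroportin), the iron exporter. TFRC, the transferrin receptor, takes up iron bound to transferrin. SLC39A4 (ZIP4) imports zinc from the lumen, and its loss causes the zinc deficiency disease acrodermatitis enteropathica. SLC30A10 moves manganese out of cells, TRPV6 is the apical calcium channel of the gut, and TRPM6 is a channel for magnesium. FOXA2 is a forkhead factor of endoderm-derived tissues that binds regulatory DNA both near gene starts and far from them.

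Of the 8 windows, that of SLC30A10 was the one with a site of both replicates within 1 kb of the gene start, so the stretches before the annotated starts of that gene are shown, together with that of SLC40A1, whose window held the most sites. They are the 250 bases before each start in RefSeq, on GRCh38.p14 and 5′ to 3′ on the minus strand. RefSeq gives SLC30A10 an upstream start and another 30.5 kb further into the gene. Capitals mark letters of the motifs named below.
SLC30A10 upstream start, chr1:219959099-219959348: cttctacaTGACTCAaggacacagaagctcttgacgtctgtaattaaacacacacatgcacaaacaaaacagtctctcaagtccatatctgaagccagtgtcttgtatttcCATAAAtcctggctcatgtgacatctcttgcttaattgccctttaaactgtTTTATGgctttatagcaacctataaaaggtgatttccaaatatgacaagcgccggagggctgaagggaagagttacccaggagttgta
SLC30A10 inner start, chr1:219928558-219928807: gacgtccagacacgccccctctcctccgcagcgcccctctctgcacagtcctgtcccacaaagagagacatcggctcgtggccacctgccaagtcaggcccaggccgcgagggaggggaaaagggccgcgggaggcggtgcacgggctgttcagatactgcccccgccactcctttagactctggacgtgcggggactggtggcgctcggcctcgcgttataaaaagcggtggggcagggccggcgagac
SLC40A1 start, chr2:189580787-189581036: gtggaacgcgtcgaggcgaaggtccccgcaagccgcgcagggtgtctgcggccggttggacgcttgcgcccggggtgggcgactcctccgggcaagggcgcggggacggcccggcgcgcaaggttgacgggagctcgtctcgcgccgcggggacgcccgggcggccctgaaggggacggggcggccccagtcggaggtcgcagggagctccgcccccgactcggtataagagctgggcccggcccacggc

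The upstream stretch of SLC30A10 held 41.2% G and C, against 67.6% at its inner start and 77.2% at the SLC40A1 start. None of the 3 holds the forkhead letters TGTTTAC or TATTTAC on either strand, nor does any of the 14 RefSeq starts of the 7 members matched in the table (SLC39A4 was not matched). Over all 35116 starts of the table, 5.27% hold them. The capitals in the upstream SLC30A10 stretch are 1 match to the AP-1 letters TGANTCA, 242 bases before the start, and 2 matches to the CDX letters TTTATG or TTTATTG, 139 and 88 bases before it, each on one strand or the other and without overlap. The AP-1 letters occur before 6.57% of all starts and before 3 of the 14, those of SLC30A10, SLC11A2 and TRPM6. The CDX letters occur before 12.6% of all starts and before 3 of the 14, those of SLC30A10 and SLC11A2. Letters for GATA factors (AGATAA or TGATAA, 14.6% of all starts), a further forkhead form (TGTTTGC, 3.23%), HNF1 (GTTAAT, 6.23%) and HNF4 (AAAGTCC, 3.2%) were not in these 3 stretches. They were found before 1, 0, 1 and 1 of the 14 starts, those of SLC11A2, of none, of SLC11A2 and of CYBRD1. Such a match describes the letters only. Other forms of these motifs were not searched for, so a stretch without these letters may still hold another form. The peaks are on hg19 and these stretches on GRCh38, no position was carried from one build to the other, and the peaks' own sequences are not shown.

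The windows differed widely in binding. The 3 richest, SLC40A1 with 10 shared sites, SLC30A10 with 7 and SLC11A2 with 5, held 22 of the 26. TFRC had 2, SLC39A4 and TRPV6 had 1 each, and CYBRD1 and TRPM6 had 0. Per 100 kb the order was SLC40A1 with 8.26 shared sites, SLC11A2 with 3.38, SLC30A10 with 1.87, TFRC with 1.49, SLC39A4 with 0.943 and TRPV6 with 0.862. The 8 windows together had 1.85 shared sites per 100 kb, against 0.803 over the chromosomes 1 to 22 and X. Without the SLC40A1 window the value was 1.25. The single replicates gave 3.64 peaks per 100 kb in the windows and 2.11 over the genome in replicate 1, and 2.0 and 0.887 in replicate 2. Within 1 Mb of the gene but outside the window, shared sites per 100 kb were 1.89 for SLC11A2, 1.42 for TFRC and 1.26 for CYBRD1. They were 0.789 for TRPV6 and 0.421 for SLC39A4, and the surroundings of the other genes are given below.

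**Figure D1:**
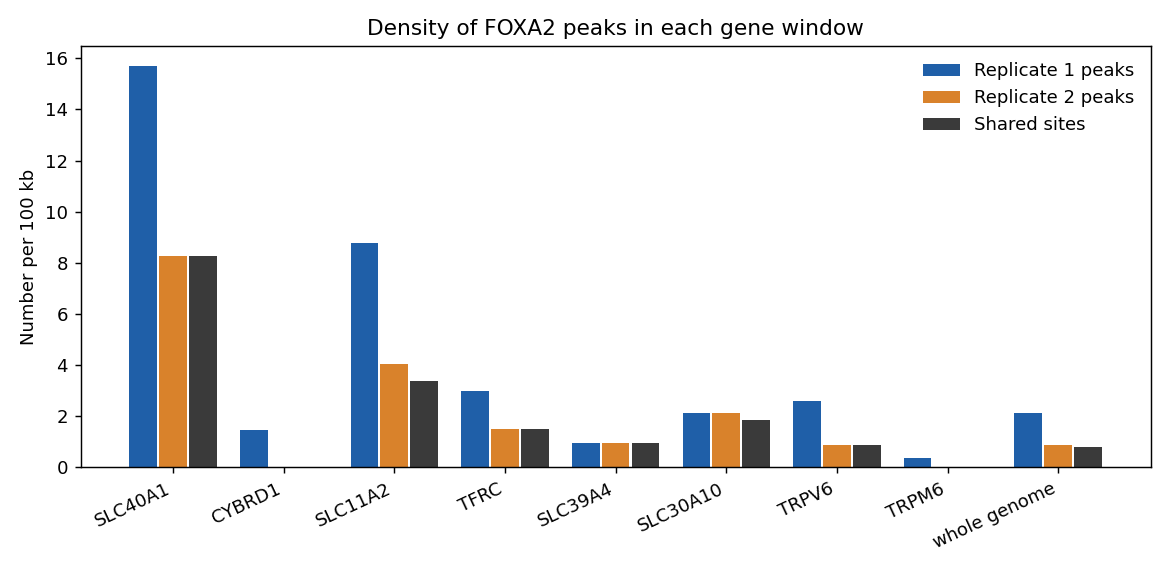
Number of FOXA2 peaks per 100 kb in each gene window and over chromosomes 1 to 22 and X. Bars give replicate 1 peaks, replicate 2 peaks and sites shared by both. SLC40A1 reached 8.26 shared sites per 100 kb and CYBRD1 and TRPM6 had none, against 0.803 over the genome.

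Most of the sites were weaker than the median shared site of the genome. Their mean score of the 2 replicates had a median of 11.75 and ran from 7.5 to 39.5, against a median of 14.5 over all shared sites. Of the 26, 7 scored at or above that genome median, or 26.9%, where 50.9% of all shared sites do. None reached 44, the limit of the highest 10% of shared sites, which 10.1% of all sites reached. With at least 10 required in both replicates, 11 of the 26 sites were left, or 42.3%, against 62.4% of all shared sites. At that limit the density was 0.784 per 100 kb in the windows and 0.501 over the genome.

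**Figure D2:**
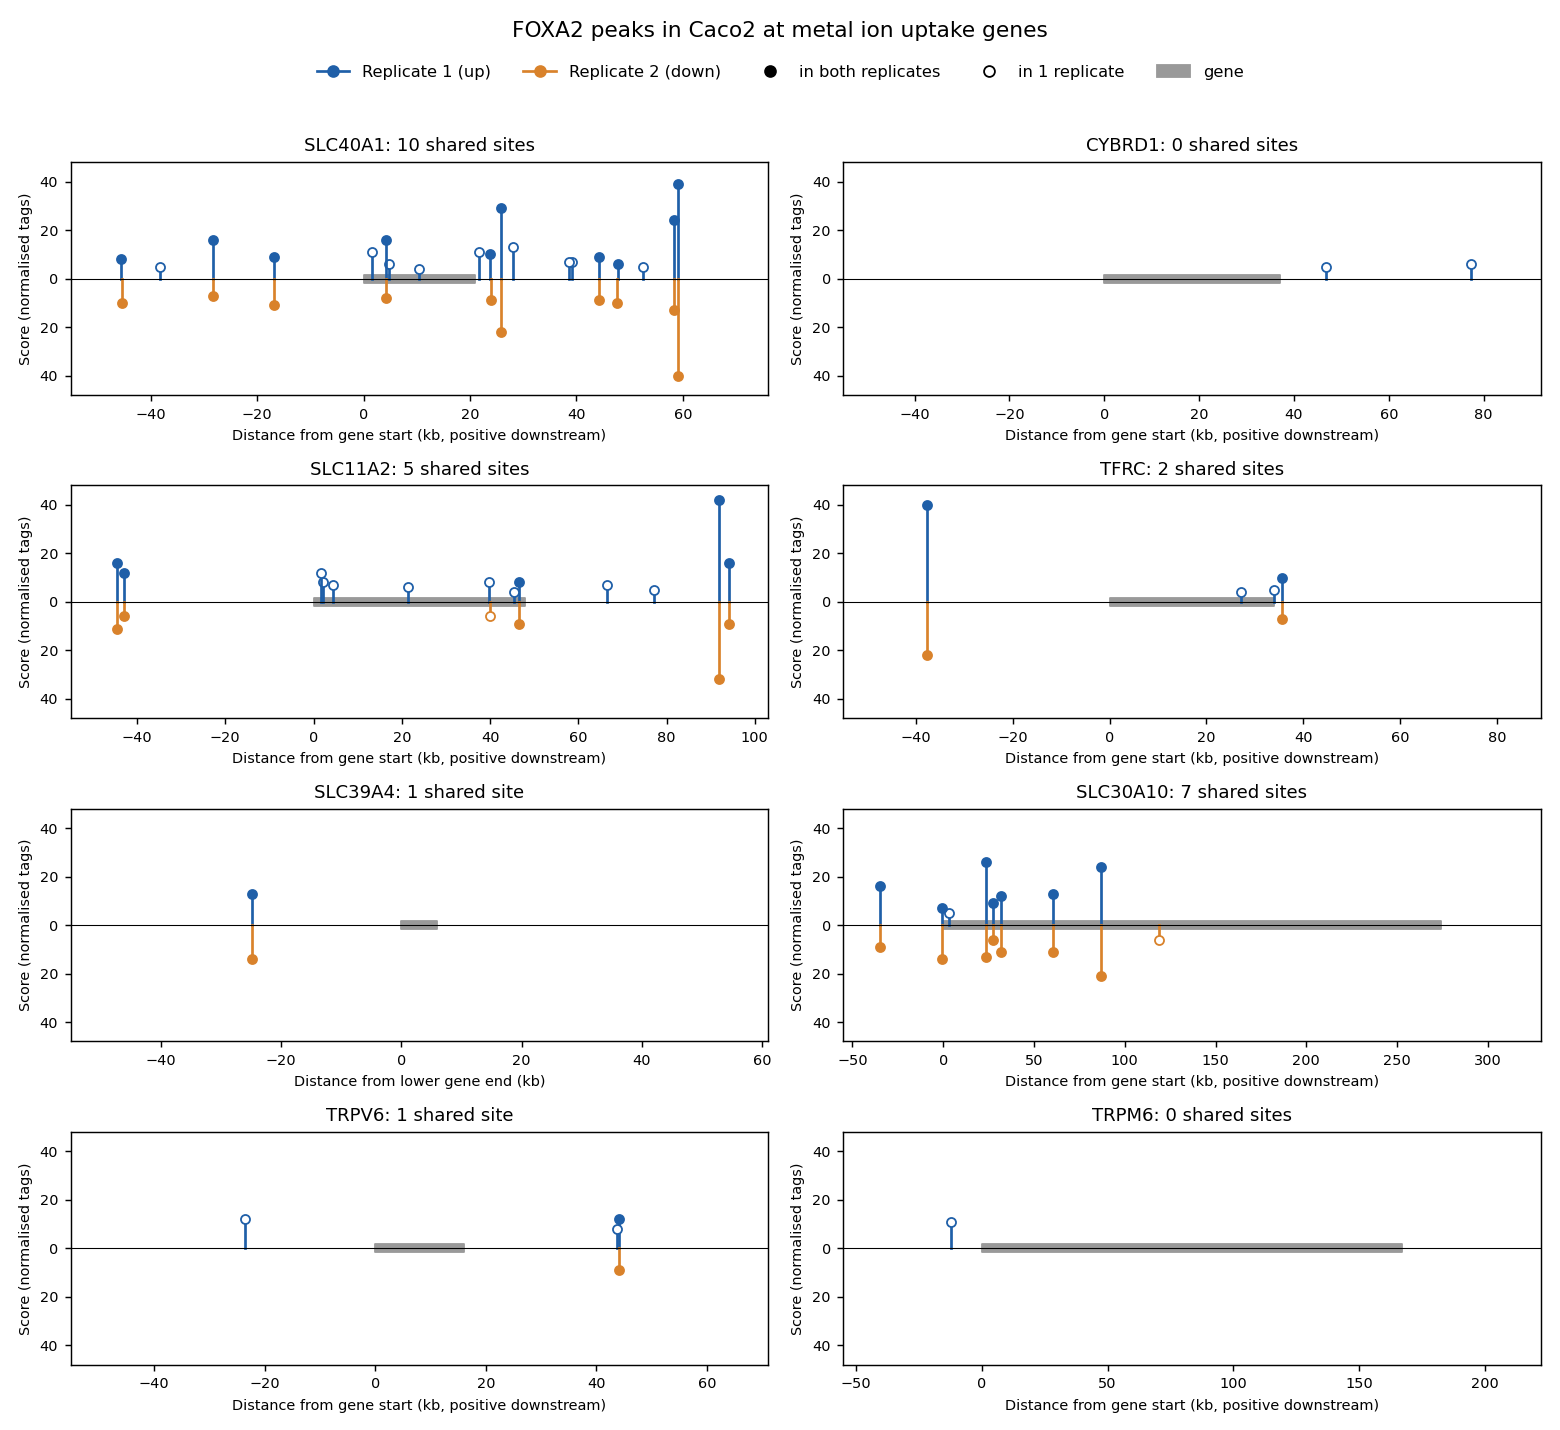
FOXA2 peaks in the 8 windows, placed by distance in kb from the gene start, positive downstream (SLC39A4: from the lower-numbered end of the gene). Upward lines are replicate 1 scores and downward lines replicate 2 scores in normalised tags, filled points are in both replicates and the grey bar is the gene. The highest points lie outside the genes: 39 and 40 beyond the 3′ end of SLC40A1, 42 and 32 beyond that of SLC11A2, and 40 and 22 upstream of TFRC.

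The window of SLC40A1, the iron exporter, was the densest. It lies on chromosome 2 from 190375 to 190496 kb and held 19 peaks in replicate 1 and 10 in replicate 2, and all 10 replicate 2 peaks were shared. Of 25049 tiles of 121 kb laid over the genome, 0.156% held 10 or more shared sites. Over the rest of the 1 Mb on each side of the gene the density was 2.32 shared sites per 100 kb, and over chromosome 2 it was 1.01. The sites stood downstream for the most part: 6 lay beyond the 3′ end, 1 in the gene and 3 upstream. RefSeq on GRCh38 places no other protein-coding gene within 50 kb of SLC40A1.

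The strongest SLC40A1 site, on chromosome 2 at 190386837 to 190386959, scored 39 in replicate 1 and 40 in replicate 2 (39.5 ± 0.707, mean ± SD, n = 2), above 87.8% of all shared sites. It lay 59.1 kb downstream of the gene start and 38.1 kb past the 3′ end. A second site, at 190387586 to 190387708, was 0.749 kb away and scored 24 in replicate 1 and 13 in replicate 2 (18.5 ± 7.78). These neighbours form the closest pair of the windows. The second strongest site, at 190420108 to 190420230, scored 29 in replicate 1 and 22 in replicate 2 (25.5 ± 4.95). It lay 25.8 kb from the start and 4.83 kb past the 3′ end. It had a weaker companion 2.04 kb away, at 190422146 to 190422268, which scored 10 in replicate 1 and 9 in replicate 2.

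Nearest the SLC40A1 start was the shared site inside the gene, at 190441696 to 190441818, 4.2 kb downstream of the start. It scored 16 in replicate 1 and 8 in replicate 2 (12 ± 5.66). A replicate 1 peak lay closer, 1.5 kb inside the gene at 190444416 to 190444538, with a score of 11 and no partner in replicate 2. Of all replicate 1 peaks with a score of 11, 48.4% are shared, so either outcome is common at that strength. The remaining 5 shared sites had mean scores of 8 to 11.5. The highest peak of a single replicate in the window scored 13 in replicate 1, at 190417907 to 190418029. With at least 10 asked of both replicates 3 sites were left in this window, a number that 6.93% of tiles reached, and 4 were left in the longer SLC30A10 window.

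SLC11A2, the iron importer of the brush border, had 4 of its 5 shared sites near the edges of the window. With flanks of 25 kb 1 site was left, and with a score of at least 10 in both replicates 2 were. The window lies on chromosome 12 from 51323 to 51471 kb, with 13 peaks in replicate 1, 6 in replicate 2 and 5 shared sites, a number that 6.13% of tiles of 148 kb reached. The strongest site, at 51329074 to 51329196, scored 42 in replicate 1 and 32 in replicate 2 (37 ± 7.07), above 86.5% of shared sites. It lay 91.9 kb from the gene start and 43.9 kb beyond the 3′ end, with a second site 2.27 kb away at 51326799 to 51326921 that scored 16 in replicate 1 and 9 in replicate 2. A second pair lay upstream, 1.61 kb apart. Its members, at 51463966 to 51464088 and 51465579 to 51465701, were 43.0 and 44.6 kb before the start. The first scored 12 in replicate 1 and 6 in replicate 2, and the other 16 in replicate 1 and 11 in replicate 2 (13.5 ± 3.54).

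The SLC11A2 gene itself held 1 shared site, near its 3′ end at 51374477 to 51374599, with 8 in replicate 1 and 9 in replicate 2. Near the start only replicate 1 had peaks, 3 of them, 1.7, 2.2 and 4.4 kb inside the gene, scoring 12, 8 and 7. The highest, at 51419206 to 51419328, had its nearest replicate 2 peak 38.2 kb away, and 52.8% of replicate 1 peaks of its score are shared. A further replicate 1 peak in the gene, with a score of 8, lay 280 bp from a replicate 2 peak with a score of 6 without overlapping it. The outer sites cannot be given to SLC11A2 by position, since RefSeq on GRCh38 places TMT1A, HIGD1C, LETMD1 and CSRNP2 within 50 kb of it. The gene spans 76.6 kb there, against 48 kb in the rule used here, so distances from its 3′ end hold for the rule's span only.

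TFRC, the receptor for transferrin-bound iron, had a single strong site far upstream. Its window, on chromosome 3 from 195726 to 195860 kb, held 4 peaks in replicate 1 and 2 in replicate 2, both shared, a number that 26.0% of tiles of 134 kb reached. The strong site, at 195847705 to 195847827, lay 37.8 kb before the start and scored 40 in replicate 1 and 22 in replicate 2 (31 ± 12.7), above 82.0% of shared sites. The other, at 195774212 to 195774334, lay just past the 3′ end and scored 10 in replicate 1 and 7 in replicate 2 (8.5 ± 2.12). Within the gene the lists held 1 peak, of replicate 1 alone, with a score of 4, and the highest peak of a single replicate in the window scored 5. RefSeq on GRCh38 gives TFRC no other protein-coding neighbour within 50 kb.

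CYBRD1, the ferric reductase, had no shared site. In its window on chromosome 2, from 172328 to 172465 kb, replicate 1 had 2 peaks, scoring 5 and 6, both beyond the 3′ end, and replicate 2 had 0. RefSeq on GRCh38 places DCAF17 within 50 kb of the gene, on its 5′ side. A window of 137 kb without a shared site is common, as 52.9% of tiles are empty. The nearest shared sites lay 175 kb below the gene and 171 kb above it, so the stretch without one was 383 kb long. Counted by number, 6.88% of the 24321 gaps between neighbouring shared sites are at least as long. Gaps of that length make up a larger share of the genome than of the gaps, and that share was not computed. Within this stretch, replicate 1 had 10 unshared peaks with a highest score of 14. That is 2.61 replicate 1 peaks per 100 kb, against 2.11 over the genome. A peak absent from a list did not pass the authors' calling thresholds, and this sets no limit on weaker binding.

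SLC30A10, the manganese exporter, had its shared sites around its start and in the span that the rule takes as the gene. Its window on chromosome 1, from 219808 to 220182 kb, is the longest, because the rule takes the gene as 274 kb. RefSeq on GRCh38 gives it 48.7 kb, so which part of the window counts as gene depends on the annotation. Replicate 1 had 8 peaks and replicate 2 had 8, of which 7 were shared, a number that 14.8% of tiles of 374 kb reached. All 7 lay towards the start side of the rule's span, from 86.8 kb inside it to 35.1 kb upstream of its start. Below the innermost of them the nearest shared site was beyond the lower end of the gene, 179 kb from it.

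The SLC30A10 site at the gene start, at 220132481 to 220132603, had its midpoint 0.5 kb upstream of the start, which the rule gives to 1 kb. It scored 7 in replicate 1 and 14 in replicate 2 (10.5 ± 4.95). It was the one site of the 26 with a ratio more than 2-fold from the median ratio, which 9.77% of all shared sites are. The strongest site, at 220045169 to 220045291, scored 24 in replicate 1 and 21 in replicate 2 (22.5 ± 2.12), above 71.1% of shared sites. Next came the site at 220108100 to 220108222, 23.8 kb inside the gene, with 26 in replicate 1 and 13 in replicate 2 (19.5 ± 9.19).

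That second site belonged to a group of 3 shared sites within 7.99 kb. The others, at 220104510 to 220104632 and 220100231 to 220100353, had 9 in replicate 1 and 6 in replicate 2, and 12 in replicate 1 and 11 in replicate 2. The group lay 23.8 to 31.7 kb inside the gene, and RefSeq on GRCh38 has the inner start 30.5 kb inside the upstream one. The distance of these sites from that inner start was not measured, as no position was carried between the builds. The site upstream of the rule's gene start, at 220167054 to 220167176, scored 16 in replicate 1 and 9 in replicate 2 (12.5 ± 4.95), and RefSeq on GRCh38 places EPRS1 on that side within 50 kb of the gene. A further site, 60.5 kb inside the rule's span, scored 13 in replicate 1 and 11 in replicate 2. The highest peaks of a single replicate in this window scored 5 in replicate 1 and 6 in replicate 2. Within 1 Mb of the gene but outside the window the density was 0.632 shared sites per 100 kb, and over chromosome 1 it was 0.856.

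SLC39A4, the zinc importer, had 1 shared site. Its window on chromosome 8, from 145587 to 145693 kb, held 1 peak in each replicate, which overlapped, and 41.0% of tiles of 106 kb hold at least 1 shared site. The site, at 145612042 to 145612164, scored 13 in replicate 1 and 14 in replicate 2 (13.5 ± 0.707) and lay 24.9 kb below the lower-numbered end of the gene. From there to the next shared site above the gene, 286 kb away, neither replicate had any peak. By number, 10.2% of the gaps between neighbouring shared sites are at least as long, and their share of the genome is larger. The window is crowded, with 8 other protein-coding genes within 50 kb in RefSeq on GRCh38, ADCK5 and CPSF1 below SLC39A4 and VPS28, TONSL, KIFC2 and others above it.

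TRPV6, the calcium channel, also had 1 shared site, distant from the gene. Its window on chromosome 7, from 142518 to 142634 kb, held 3 peaks in replicate 1 and 1 in replicate 2, and 43.1% of tiles of 116 kb hold at least 1 shared site. The site, at 142539982 to 142540104, lay 44.0 kb from the start and 28.0 kb beyond the 3′ end and scored 12 in replicate 1 and 9 in replicate 2 (10.5 ± 2.12). A second replicate 1 peak, with a score of 8, lay 293 bp from it, closer than the 300 bp at which replicate 2 peaks could be called apart. Upstream, 23.5 kb before the start, replicate 1 had a peak of 12 at 142607396 to 142607518, and replicate 2 had none within 67.4 kb. RefSeq on GRCh38 places EPHB6 on the 3′ side and TRPV5, the related calcium channel, on the 5′ side.

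TRPM6, the magnesium channel, had no shared site in its window. Its window on chromosome 9, from 77287 to 77554 kb, held 1 peak, 12.1 kb upstream of the start at 77516011 to 77516133, with a score of 11 in replicate 1 and no partner in replicate 2. None lay in the 167 kb of the gene. Of tiles of 267 kb, 36.5% hold no shared site. The stretch without a shared site reached further, as a gap of 1790 kb. The nearest shared sites were 697 kb below the gene and 926 kb above it. Counted by number, 0.391% of all gaps between shared sites are at least as long, and the median gap was 38.8 kb. Long gaps make up a larger share of the genome than of the gaps, so a gene falls in them more often than 0.391% tells. That share of the genome was not computed. Unshared peaks were sparse there too, with 6 in replicate 1, scoring at most 12, and 1 in replicate 2, scoring 8. Within 1 Mb of TRPM6 but outside the window there were 2 shared sites, or 0.105 per 100 kb. This was the lowest of the 8 surroundings, against 0.516 over chromosome 9. RefSeq on GRCh38 places RORB within 50 kb of its 3′ end. The copy number of these regions in Caco2 was not measured, and its part in the counts was not tested.

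Shared sites stood upstream of the genes, inside them and beyond their 3′ ends. Of the 25 shared sites of the 7 genes with a strand in the table, 8 lay upstream, 7 in the gene and 10 beyond the 3′ end. Gene bodies held 1.16 shared sites per 100 kb over 603 kb and the flanks 2.38 per 100 kb over 800 kb, counting SLC39A4. Of those 603 kb, 274 kb are the SLC30A10 span of the rule, with 5 of the 7 sites, and 167 kb are TRPM6, with 0. By the rule's spans, the strongest site of the SLC40A1, SLC11A2 and TFRC windows lay 38.1, 43.9 and 37.8 kb outside the gene. That of SLC30A10 lay 86.8 kb inside the span the rule gives it. Counted from the same start, the 48.7 kb of RefSeq would leave 3 of the 5 SLC30A10 sites in the gene, and the strongest would be among the 2 beyond its 3′ end. Of the 26 sites, 14 had another shared site within 10 kb, or 53.8%, against 39.0% of all shared sites. More of these 14 lay in the SLC40A1 window than in any other, and none lay in those of TFRC, SLC39A4 and TRPV6.

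The score ratios of the replicates spread about as widely at the 26 sites as at all shared sites. Replicate 1 was higher at 18, replicate 2 at 7 and they were equal at 1, against 63.7% and 29.7% of all shared sites higher in replicate 1 and replicate 2. The median log2 ratio of replicate 1 to replicate 2 was 0.40 in the windows and 0.26 over all shared sites, with SDs of 0.56 and 0.62. The paired centres differed by 19 bp at the median site and by 79 bp at most, against a median of 15 bp over all. From the approximate tags of each score, a 95% interval of each ratio was formed that covers counting error only. This interval is wider at low scores, and most of the 26 sites scored below the median shared site. It left out the genome's median ratio at 3 sites. Of all shared sites 22.6% do so, a share that was not matched for score.

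These 3 were the upstream TFRC site, with a log2 ratio of 0.86 (0.31 to 1.42), the SLC30A10 site 23.8 kb inside the gene, with 1.0 (0.29 to 1.71), and the SLC30A10 site at the start, with -1.0 (-1.89 to -0.11). The first pair were higher in replicate 1 and the start site was higher in replicate 2. The widest ratio towards replicate 1 was 1.19 (0.24 to 2.15), at the SLC40A1 site 28.2 kb upstream, with 16 in replicate 1 and 7 in replicate 2. The half-width of these intervals had a median of 0.88 on the log2 scale.

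**Figure D3:**
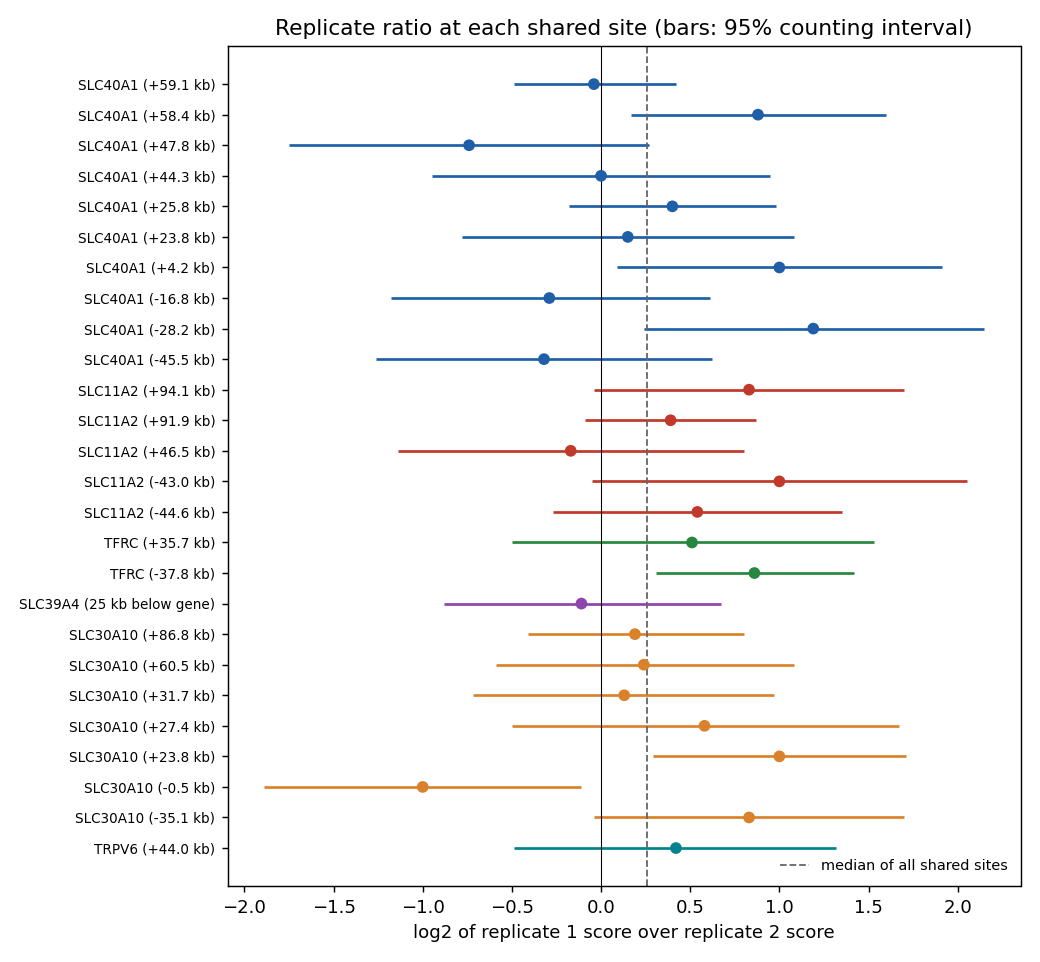
Log2 of the replicate 1 score over the replicate 2 score at each of the 26 shared sites, labelled by gene and distance from its start in kb. Bars are 95% intervals for counting error and the dashed line is the median of all shared sites, 0.26. At the SLC30A10 start site the log2 ratio was -1.0, and its bar lies wholly on the side of replicate 2.

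**Figure D4:**
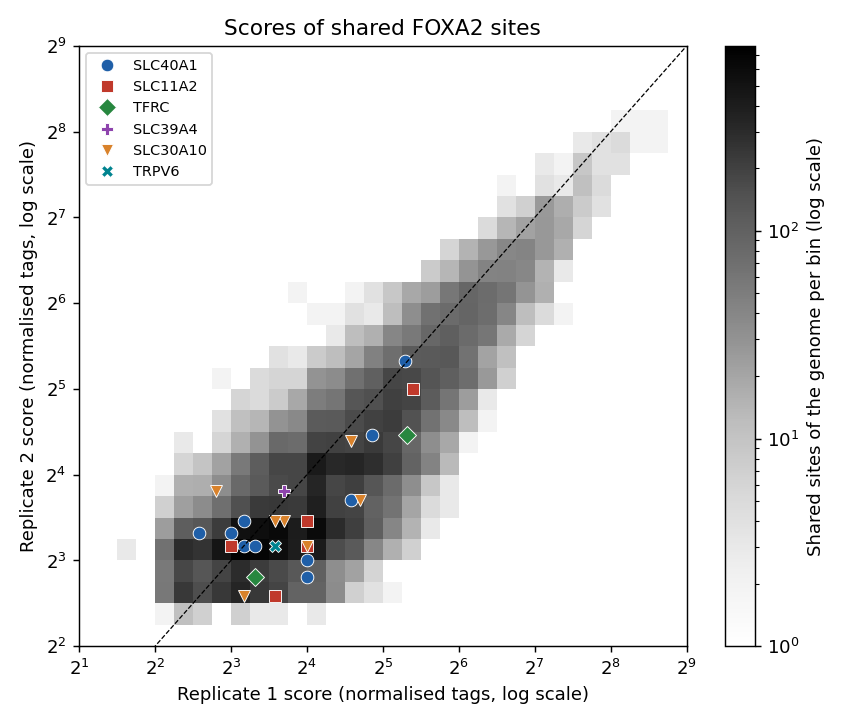
Replicate 1 score (x, log scale) against replicate 2 score (y, log scale), both in normalised tags, for the 26 shared sites by gene. Grey squares count all 24345 shared sites and the dashed line marks equal scores. The sites of the windows lie in the lower and middle part of the genome's range, with 39 and 40 at the strongest SLC40A1 site.

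Peaks of 1 replicate were mostly weak. Of the 51 replicate 1 peaks, 26 were shared, or 51.0% (95% Clopper-Pearson interval 36.6% to 65.2%), against 38.1% of all replicate 1 peaks. If each had been shared as often as all replicate 1 peaks with its score, 21.4 would have been. By window these values were 10 shared against 8.07 for SLC40A1, 5 against 4.96 for SLC11A2 and 7 against 4.32 for SLC30A10. The 25 unshared peaks of replicate 1 scored 4 to 13, with a median of 7, against 6 over all such peaks. Of the 28 replicate 2 peaks, 26 were shared, or 92.9% (76.5% to 99.1%), against 90.5% of all replicate 2 peaks. Both unshared ones, in the SLC11A2 and SLC30A10 genes, scored 6. The intervals cover counting error only, and neighbouring peaks are not independent.

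**Figure D5:**
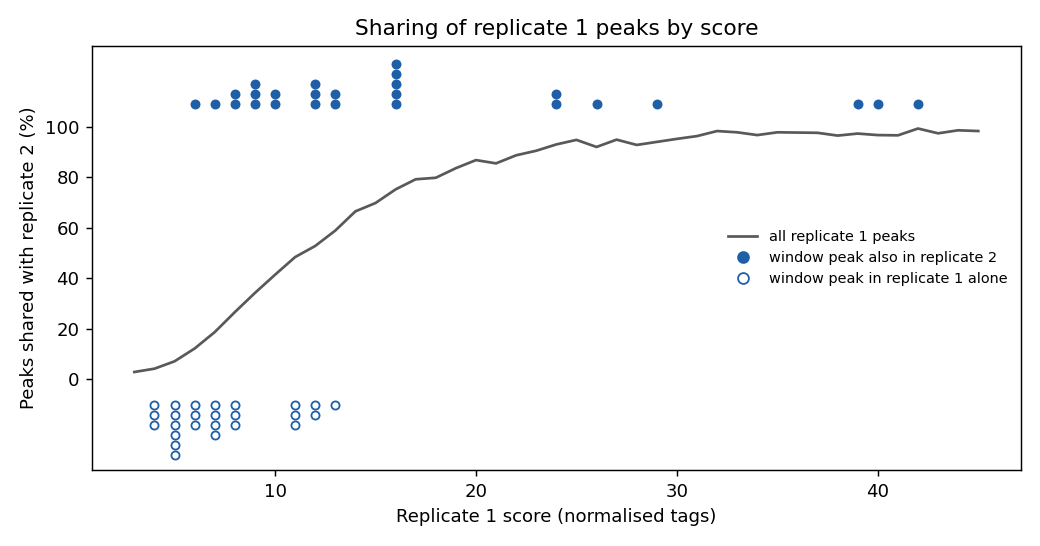
Percentage of replicate 1 peaks shared with replicate 2 (y) by replicate 1 score in normalised tags (x), over the whole list (line). Filled points above the line's range are the 26 window peaks also found in replicate 2, and open points below it are the 25 found in replicate 1 alone, 1 point a peak, stacked where scores are equal. All window peaks above a score of 13 were shared.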

How the data were processed

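FOXA2 ChIP-seq peak lists of 2 replicates were analysed. Bowtie 1.0.0, HOMER 1.2 and hg19 are named in the submitters' processing notes. HOMER called each replicate alone against input, at a false discovery rate of 0.001 and with 4-fold limits over input and over the local 10000 bp, per the file headers. All peaks have 1 width, 123 bp in the first list and 151 bp in the second. The deposited scores are whole numbers. Scaled by the header's total tags over 10000000 they sum to within 0.45% (replicate 1) and 0.196% (replicate 2) of its tags in peaks, so they were read as scaled, rounded tags.

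Windows came from the gene intervals, known to 1 kb, and strands and start sequences from RefSeq (GRCh38.p14). No hg19 genome or annotation was used, so exons, introns, peak motifs and other metal genes were not analysed here. Tiles of a window's length cover chromosomes 1 to 22 and X up to the last peak, assembly gaps included. Sites named in a window are its 3 highest by mean score, the one nearest the gene start, the highest peak of a single replicate, and members of described pairs or groups. Members and lists were chosen with earlier results of these data known. With 1 condition, no p-value was computed. Code for overlaps was checked on simulated lists. Coordinates are 1-based. Python 3.11.15, numpy 2.4.6, pandas 2.3.3, scipy 1.17.1 and matplotlib 3.10.9 were used.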

Additional observations from a re-analysis of the deposited data

How the results depend on the processing

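The number of shared sites in the 8 windows, 26, stayed within 1.5 times with a reciprocal overlap of 50%, midpoints within 100 bp or 500 bp and flanks of 100 kb. It was 11 with a score of at least 10 in both replicates, 14 with flanks of 25 kb and 7 in the genes alone. The density of 1.85 per 100 kb was 0.784 with that score limit and stayed within 1.5 times with flanks of 25 kb (1.4) and 100 kb (1.36). With 1 replicate alone the windows held 28 peaks (replicate 2) to 51 (replicate 1), or 2.0 to 3.64 per 100 kb. Of replicate 2 peaks with a score of at least 10, 100% were shared, against 92.9% of all 28. The percentage of tiles with as many sites as the SLC40A1 window, 0.156%, was 0.498% on chromosome 2, and with 1 replicate alone it ranged from 0.0639% to 0.252%. The settings of the tiles and those without a window were chosen after seeing the data. The median log2 ratio, 0.40, was 0.39 with the score limit. Of 72 alternatives for single windows, 51 stayed within 1.5 times, 16 of them with 0 against 0 in the CYBRD1 and TRPM6 windows, and 21 moved. With flanks of 25 kb the SLC40A1 window held 5 shared sites, SLC11A2 1, TFRC 1 and TRPV6 0. With the score limit SLC40A1 held 3, SLC30A10 4, SLC11A2 2, TFRC 1 and TRPV6 0. The others that moved were 5 windows cut to the gene, 6 with replicate 1 alone and TRPV6 with midpoints within 500 bp. The 2 motif alternatives were not run, as no genome of the files' build was used. No paired analysis was possible because the 2 replicates belong to 1 group. Replicate 2 had fewer tags and a lower share of its tags in peaks than replicate 1 (8.72% in replicate 1 and 5.16% in replicate 2), and the part of each in its shorter list cannot be told apart.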
